A study of Danio rerio with 8 samples.

Results

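Ribosome footprints of zebrafish (Danio rerio) embryos mutant for ddx3xb were compared with those of wild type embryos. The comparison took 4 of the series' 8 samples, namely the 2 samples of uninjected homozygous mutants (genotype written Ddx3xb-/Ddx3xb-, called KO here) and the 2 samples of wild type embryos (WT), all at 4 hours post fertilization (hpf), a blastula stage. Mutant embryos given the construct ddx3xbFL (KO_FL) or the construct ddx3xb deltaN (KO_dN) made up the other 4 samples, and their values are set beside KO and WT for single genes. Every group went through cycloheximide, which holds ribosomes on the message, then RNase I digestion, depletion of ribosomal RNA, gel selection of short fragments and a small RNA library kit, although the labels call the starting molecule polyA RNA. The labels do not say what the mutant allele removes, whether the mothers were also mutant, or if the 2 replicates of a group were separate clutches.

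DDX3 proteins are DEAD-box helicases that use ATP to open RNA structure, and they are best known for helping the initiation machinery move through structured leaders of mRNAs. Around 4 hpf a zebrafish embryo passes from maternal to zygotic control: messages laid down in the egg are translated and cleared while the embryo's own genome is switched on. Footprint abundance depends on both the amount of a message and how densely ribosomes sit on it, and with no mRNA measurement used here these 2 quantities cannot be told apart.

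Each group had 1 deposited value per gene, in FPKM (fragment density along a transcript relative to all mapped fragments), made by the authors from both replicates. There was thus no replicate error and no test for any gene, and every difference below is a description of these values. The 33633 usable identifiers summed to 364061 FPKM in KO and 2050290 FPKM in WT, and 4912 of them reached 1 FPKM in KO and 10889 in WT. One gene, 5.8S ribosomal RNA, held 45.5% of the KO sum and 4.06% of the WT sum, while genes with a symbol that are not known noncoding RNAs held 6.32% of the KO sum and 7.11% of the WT sum. The WT file also had another layout than the KO file, with 101 identifiers on more than 1 line, which were left out. The median gene was lower in KO as deposited, so the files were brought to a common scale by the median of ratios over the 3177 genes at 1 FPKM or more in all 4 files. The scaling factors were 0.73 for KO and 3.4 for WT, so a gene with the same deposited value in both files stands 4.65 times higher in KO after scaling. Any gene whose scaled value in KO is above that in WT by less than this factor is therefore lower in KO as deposited, which holds for many of the list members called higher below. "Scaled FPKM" below means the deposited value divided by its file's factor. Ratios are log2((KO + 1)/(WT + 1)) of scaled FPKM, a scale on which the change of low genes is understated.

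Read depth could be compared only through low values. Among 4036 genes under 0.3 FPKM in both files, 343 (8.50%) sat on 4 common log2 ratios between -1.748 and -0.726. If each is the worth of a single read in 1 library, and provided that both files are on 1 scale, the KO libraries were 1.65 to 3.36 times as deep as the WT libraries. The reads themselves are not counted in the files. Identifiers above 0 numbered 19442 in KO and 23670 in WT, so fewer were detected in KO. The 4 ratios were chosen so that their outer and inner pairs had equal sums, so that equality is not a finding.

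ddx3xb itself had 14.7 FPKM in KO and 129 FPKM in WT. After scaling it stood at 20.1 in KO, 85.0 in KO_FL, 283 in KO_dN and 37.9 in WT, a log2 ratio of KO over WT of -0.88, or 1.85-fold lower in KO. Footprints on ddx3xb were therefore still present in the mutants. Whether the difference passes 2-fold depends on the scaling: the log2 ratio was -3.05 as deposited and -1.03 with ratios centred on their median, and between -0.95 and -0.60 under the other settings. Its paralog ddx3xa, which encodes a closely related helicase, had 15.2 scaled FPKM in KO, 12.7 in KO_FL, 7.13 in KO_dN and 8.27 in WT. That is a log2 ratio of 0.81 after scaling, with the direction turned in the deposited values (11.1 FPKM in KO and 28.1 FPKM in WT). Reads from stretches that both paralogs share could be split between them in counting.

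Over the 6517 genes whose scaled KO and WT values averaged at least 1, the median log2 ratio was -0.28, with quartiles of -0.90 and 0.38. At least 2-fold differences were common: 752 genes stood higher in KO (11.5%) and 1426 stood lower (21.9%). A gene near 0 in 1 group passed the filter only through the other group. Where it lay very near 0, passing alone fixed its 2-fold call. Counts and medians over tested genes therefore describe the genes that passed and no others. At 4-fold the counts were 245 higher and 418 lower, and at 8-fold 109 higher and 139 lower. Scaling sets the balance of these counts. In the deposited values 207 genes were at least 2-fold higher in KO and 5373 at least 2-fold lower, with a median log2 ratio of -2.02, and with the ratios centred on their median there were 1177 higher and 1173 lower.

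Among the 4911 genes with a symbol that are not known noncoding RNAs, 455 were higher (9.26%) and 973 lower (19.8%). The remaining 1606 genes, which are noncoding RNAs or have no symbol, were called more often, with 297 higher (18.5%) and 453 lower (28.2%). Restricting the count to the 4447 genes whose symbol is protein-coding in RefSeq gave 394 higher (8.86%) and 862 lower (19.4%). The widest differences also sat more often outside the named genes: of the genes beyond 8-fold, 33 of the 109 higher and 26 of the 139 lower ones belonged to the 4911.

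**Figure D1:**
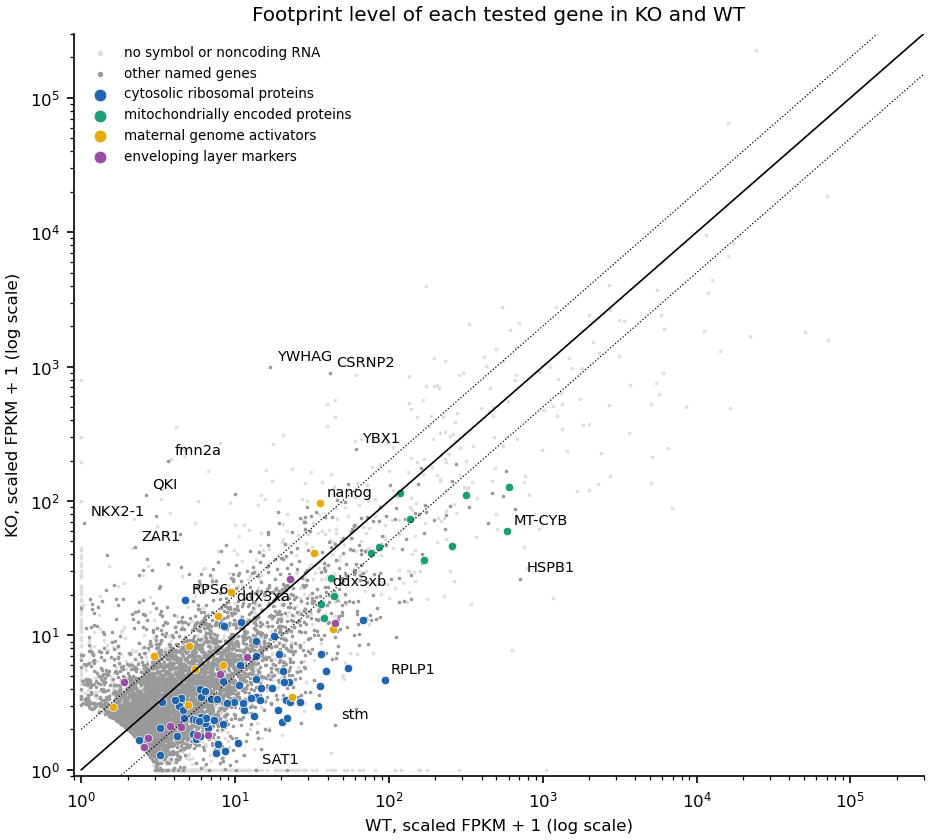
Level of each gene tested in KO (vertical log axis) and in WT (horizontal log axis), in scaled FPKM + 1, with 1 point per gene, the line of equal values and dotted lines at 2-fold. Coloured points mark cytosolic ribosomal proteins, mitochondrially encoded proteins, maternal genome activators and enveloping layer markers, pale points are genes without a symbol or noncoding RNAs, and names mark single genes given in the text. The cloud is wide, with 752 genes at least 2-fold higher in KO and 1426 at least 2-fold lower, a balance that depends on the scaling.

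Ranks within each file need no scaling factor, although the genes ranked were those kept by their scaled mean. A gene's percentile among the 6517 genes differed between KO and WT by a median of 16 points in either direction, and the middle 90% of differences ran from -48.2 to 50.4 points. A total of 1086 genes stood at least 25 points higher in KO and 1063 at least 25 points lower. The 752 genes called higher all ranked higher in KO, and 1421 of the 1426 called lower ranked lower. Ranks and ratios come from the same values, so this agreement was largely built in and is no separate evidence. Across genes, the levels in KO and WT had a Pearson correlation of 0.73 on the log2 scale and a Spearman correlation of 0.48 (n = 6517 genes, which share the group's 2 libraries). For KO with the injected mutants the Pearson values over the same genes were 0.92 (KO_FL) and 0.93 (KO_dN). Genes are not independent replicates, and the WT file's own layout and depth go along with this contrast, whose part in the difference was not tested.

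Calls were not confined to weakly covered genes. With the genes split into 5 equal bins by the scaled mean of KO and WT, the share called higher was 6.06%, 7.67%, 10.8%, 13.5% and 19.6% from the lowest to the highest bin. The share called lower was 11.4%, 16.4%, 19.8%, 26.0% and 35.7%, and the median log2 ratio was -0.21, -0.21, -0.24, -0.35 and -0.51. The pseudocount narrows the ratios of the lowest bin, so part of this gradient is built into the scale. The bins also differ in make-up. Genes with a symbol that are not known noncoding RNAs made up 79.2%, 79.0%, 80.6%, 80.8% and 57.2% of them, from lowest to highest.

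**Figure D2:**
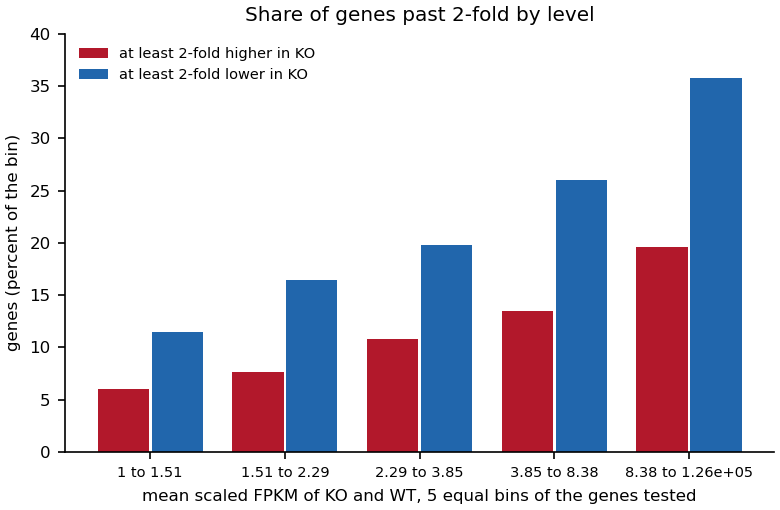
Share of genes at least 2-fold higher (red) or at least 2-fold lower (blue) in KO than in WT (vertical axis, percent) in each of 5 equal bins of the genes tested, ordered by the mean scaled FPKM of KO and WT (horizontal axis, lowest to highest). In the highest bin 19.6% of genes were called higher and 35.7% lower after scaling.

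Among genes with a symbol that are not known noncoding RNAs, the highest ratios were those of a transcription factor, a 14-3-3 protein, a formin and an RNA-binding protein. NKX2-1, a homeobox transcription factor known from thyroid, lung and forebrain, had 68.2 scaled FPKM in KO, 71.3 in KO_FL, 67.5 in KO_dN and 0.0455 in WT. Its rank was the 95.9th percentile in KO and the 0.997th in WT. The 3 mutant groups thus stood close together and WT alone was near 0. NKX2-1 passed the filter only through KO, which fixed its call. YWHAG, a 14-3-3 adaptor protein, was among the most abundant named genes of the mutants, with 987 scaled FPKM in KO, 994 in KO_FL, 617 in KO_dN and 15.9 in WT. fmn2a, a formin that nucleates actin filaments, had 197 in KO, 85.8 in KO_FL, 113 in KO_dN and 2.66 in WT. QKI, an RNA-binding protein of the STAR family that acts in splicing and mRNA stability, had 110 in KO, 81.0 in KO_FL, 77.3 in KO_dN and 1.63 in WT. For these genes the ratio was positive in the deposited values too, at 5.46 for NKX2-1, 3.71 for YWHAG, 3.85 for fmn2a and 3.63 for QKI on the log2 scale.

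CSRNP2, a nuclear protein of the cysteine and serine rich family, was highest in level among the genes that follow. It had 891 scaled FPKM in KO, 310 in KO_FL, 788 in KO_dN and 40.2 in WT. RPS6KA2, a ribosomal S6 kinase, had 76.4 in KO, 20.3 in KO_FL, 92.2 in KO_dN and 2.06 in WT. In both genes KO_FL lay between WT and the other mutant groups. ZAR1, an oocyte RNA-binding protein that holds maternal messages in store, had 44.5 in KO, 47.1 in KO_FL, 41.2 in KO_dN and 1.23 in WT. WAS, an activator of branched actin assembly, had 17.8 in KO, 5.26 in KO_FL, 22.7 in KO_dN and 0.140 in WT. ZAR1 was near its KO level in both injected groups, while WAS in KO_FL lay between WT and KO. WAS was near 0 in WT, so its call was fixed by the filter.

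Further genes with ratios above 3.4 encoded proteins of varied kinds. DERL1, which takes part in the export of misfolded proteins from the endoplasmic reticulum, had 55.4 scaled FPKM in KO and 3.39 in WT. MARK2, a polarity kinase that acts on microtubule-associated proteins, had 35.9 in KO and 1.69 in WT. ZNF207, a zinc finger protein of the mitotic spindle checkpoint, had 111 in KO and 9.01 in WT. The same range held the transporters SLC38A3 (16 in KO and 0.182 in WT) and SLC5A10 (26.9 in KO and 1.36 in WT), the calcium channel subunit cacna1ib (17.6 in KO and 0.692 in WT) and the Ras pathway inhibitor SPRED3 (14.7 in KO and 0.181 in WT). SLC38A3 and SPRED3 were near 0 in WT, so their calls were fixed by the filter. Several of the names in this range belong to differentiated tissues that a blastula does not yet have. Markers of those tissues were otherwise close to 0: of 4 later muscle markers only MYL1 was tested (5.87 scaled FPKM in KO and 0.551 in WT), and no later marker of nervous system, blood and vessels, or liver, gut and pancreas reached the filter. The highest value in those 3 lists was 0.129 FPKM in KO and 1.44 FPKM in WT, each taken separately and not necessarily from the same marker.

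With noncoding RNAs again set aside, the lowest ratios included those of a small heat shock protein, an otolith protein and several ribosomal proteins. HSPB1, a small heat shock chaperone, had 25.5 scaled FPKM in KO, 160 in KO_FL, 27.6 in KO_dN and 714 in WT, a log2 ratio of -4.76. SPATA6, known from the sperm neck, had 1.86 in KO, 8.11 in KO_FL, 2.74 in KO_dN and 59.9 in WT. stm, which encodes the otolith protein Starmaker, had 1.15 in KO, 12.1 in KO_FL, 2.34 in KO_dN and 43.5 in WT. In these genes KO and KO_dN were close to each other, KO_FL was higher than both, and WT was highest. SAT1, the enzyme that starts polyamine breakdown, was listed at 0 in KO and had 2.70 scaled FPKM in KO_FL, 5.09 in KO_dN and 12.6 in WT. It passed the filter only through WT, which fixed its call.

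**Figure D3:**
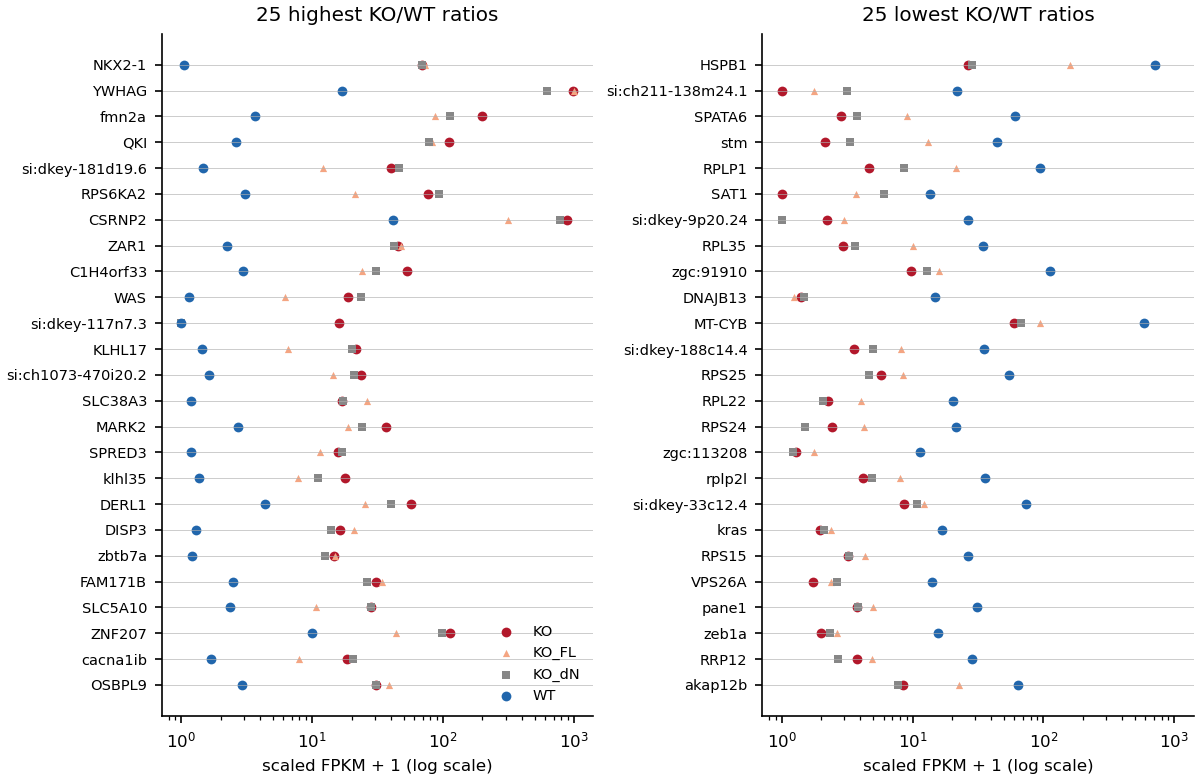
Scaled FPKM + 1 (horizontal log axis) of the 25 highest (left) and 25 lowest (right) KO over WT ratios among genes with a symbol that are not known noncoding RNAs, with 1 row per gene and 1 point each for KO, KO_FL, KO_dN and WT. In the left panel all 3 mutant groups lie to the right of WT in every row but si:dkey-117n7.3, which was listed at 0 outside KO, and NKX2-1 has 68.2 in KO and 0.0455 in WT. In the right panel WT lies to the right of the 3 mutant groups in all rows, as for HSPB1 at 25.5 in KO and 714 in WT. The rows were chosen by the KO over WT ratio, so the side on which KO lies was fixed. KO_FL and KO_dN are set against the same WT value, so their side is in part built in too.

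Some genes at the low end were abundant in both groups. PNRC2, an adaptor that links nonsense-mediated decay to decapping, had 86.5 scaled FPKM in KO and 658 in WT. STMN1, the microtubule-destabilizing protein stathmin, had 17.8 in KO and 138 in WT, and HSPA8, the constitutive Hsp70 chaperone, had 17.1 in KO and 124 in WT. In rank these genes moved little, by -2.27 points for PNRC2, -6.86 for STMN1 and -6.91 for HSPA8, since they stayed among the most abundant genes of both files. Genes high in WT and low in KO moved further: the GTPase kras, with 0.977 in KO and 15.7 in WT, had a rank difference of -71.9 points, and stm one of -73.9. zeb1a, a repressor known from epithelial to mesenchymal transition, had 1.01 in KO and 14.8 in WT, and RRP12, a ribosome biogenesis factor, had 2.76 in KO and 27.5 in WT.

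Cytosolic ribosomal proteins formed the group with the lowest median of the 40 lists with 3 or more genes tested. Of 39 large subunit genes tested, 30 were at least 2-fold lower in KO (76.9%) and 0 higher, against 19.8% lower and 9.26% higher among the 4911 genes with a symbol that are not known noncoding RNAs, and all 39 had a ratio below the median of all genes. Their median log2 ratio was -1.71, or -1.44 relative to the all-gene median, and this offset ran from -1.87 to -0.87 over the alternative settings. The median large subunit gene had 2.3 scaled FPKM in KO, 4.74 in KO_FL, 3.4 in KO_dN and 9.49 in WT. Of 31 small subunit genes tested, 19 were lower (61.3%) and 1 higher (3.23%), with a median log2 ratio of -1.35 and an offset of -1.07 (-1.63 to -0.57). Their median levels were 2.22 in KO, 4.63 in KO_FL, 3.03 in KO_dN and 7.26 in WT. In both subunits the order of the medians was therefore KO, KO_dN, KO_FL and WT from low to high. With 1 value per group, the steps of that order have no error.

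The acidic stalk proteins, which recruit the GTPase factors to the ribosome, were among the lowest. RPLP1 had 3.67 scaled FPKM in KO, 20.6 in KO_FL, 7.59 in KO_dN and 92.9 in WT, and rplp2l had 3.21 in KO, 7.03 in KO_FL, 3.90 in KO_dN and 34.9 in WT. RPL35 had 1.96 in KO and 33.5 in WT, and RPL22 had 1.27 in KO and 19.3 in WT. RPL35A, the highest ratio of the large subunit, had 2.40 in KO and 3.47 in WT. In the small subunit RPS25 had 4.73 in KO and 53.4 in WT, RPS24 had 1.42 in KO and 20.7 in WT, and RPS14 had 12.1 in KO and 67.2 in WT. The 1 gene at least 2-fold higher was RPS6, the small subunit protein phosphorylated by S6 kinases, with 17.3 scaled FPKM in KO, 12.2 in KO_FL, 35.2 in KO_dN and 3.72 in WT. Its deposited value was 12.7 FPKM in both KO and WT, so how far it stands above WT depends on the scaling. Ribosomal protein genes have processed copies in vertebrate genomes, and the labels do not state how the authors' counting treated them.

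**Figure D4:**
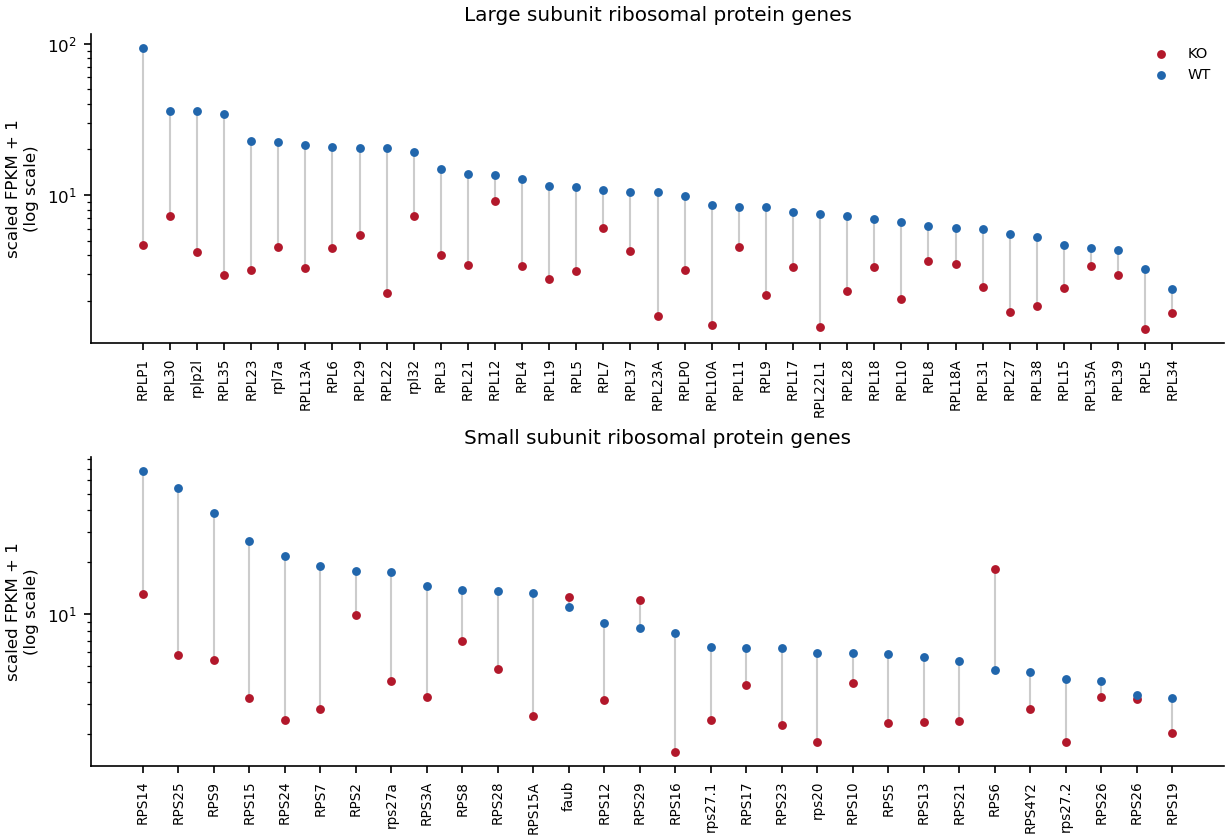
Scaled FPKM + 1 (vertical log axis) of each cytosolic ribosomal protein gene tested in KO and in WT, joined by a line, for the 39 genes of the large subunit (top) and 30 of the small subunit (bottom), ordered by their level in WT. KO lies below WT for every large subunit gene, and among the small subunit genes drawn KO lies above WT for RPS6, RPS29 and faub. As deposited, RPS6 had 12.7 FPKM in both KO and WT, and the positions of RPS29 and faub depend on the scaling.

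Genes that build ribosomes were lower less far. Of 48 ribosome biogenesis genes tested, 18 were lower (37.5%) and 3 higher (6.25%), against 19.8% lower and 9.26% higher among the 4911 genes, with a median log2 ratio of -0.79 and an offset of -0.52 (-0.66 to -0.26). The most abundant members were within or near the 2-fold line. ncl, the nucleolar protein nucleolin, had 80.8 scaled FPKM in KO and 147 in WT, npm1a, nucleophosmin, had 54.0 in KO and 88.7 in WT, and FBL, the methyltransferase fibrillarin, had 28.8 in KO and 59.4 in WT. NIP7, a factor of large subunit assembly, had 10.2 in KO and 1.62 in WT, and GAR1 and nol12 were the other 2 higher genes by the scaled values. As deposited, NIP7 had 7.43 FPKM in KO and 5.51 FPKM in WT.

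Initiation factors, the partners through which DDX3 proteins are thought to act, did not move as one block. Of 22 genes of the cap-binding eIF4F group, 2 were higher (9.09%) and 3 lower (13.6%), with a median log2 ratio of -0.02. The shares among the 4911 genes were 9.26% higher and 19.8% lower. eif4a1a, the DEAD-box subunit of eIF4F, had 72.2 scaled FPKM in KO and 108 in WT. The 3 lower members were pabpc1a, EIF4E1B and EIF4B. pabpc1a, a poly(A)-binding protein, had 109 in KO, 382 in KO_FL, 135 in KO_dN and 551 in WT. eif4e1c, a cap-binding protein, was one of the 2 higher members beside EIF4H, with 28.1 scaled FPKM in KO and 9.54 in WT, but 20.5 FPKM in KO and 32.4 FPKM in WT as deposited.

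Of 11 eIF3 genes, 2 were lower and 0 higher, both of them copies of the loosely bound subunit EIF3J, at 10.1 and 4.17 scaled FPKM in KO and 46.9 and 11.8 in WT. The scaffold subunit EIF3A had 14.9 in KO and 23.1 in WT. Of 16 genes of eIF1, eIF2, eIF2B, eIF5 and eIF6, 5 were lower (31.3%) and 1 higher (6.25%), with a median of -0.58. Among the 4911 genes 19.8% were lower and 9.26% higher, and in lists this short a few calls set the difference. The 5 lower factors were EIF2S2, eif5a, eif5b, EIF2B4 and eif1axb. EIF2S2, the beta subunit of eIF2, had 3.68 in KO and 17.9 in WT, and eif5b, which joins the subunits, had 11.4 in KO and 39.3 in WT. The 1 higher gene, EIF2B3, a subunit of the eIF2 exchange factor, had 6.99 in KO and 0.638 in WT. Of the 27 DEAD and DEAH-box helicases tested, 7 were lower (25.9%) and 1 higher (3.70%), with a median of -0.27, next to the all-gene median of -0.28. DDX27, a nucleolar helicase, had 3.05 in KO and 10.9 in WT, and DDX5, the most abundant, had 57.8 in KO and 56.1 in WT.

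Among 7 elongation and termination genes 2 were lower (28.6%), EEF1G (4.00 scaled FPKM in KO and 13.6 in WT) and the release factor ETF1 (28.0 in KO and 66.6 in WT). One was higher (14.3%), eef2a.1 (6.57 in KO and 0.479 in WT), a copy of the translocation factor, whose reads may be shared with its paralogs. eef1a1l1, a main elongation factor of the embryo, had 47.3 in KO, 101 in KO_FL, 64.0 in KO_dN and 43.3 in WT, so that KO and WT were close while KO_FL was the highest. Of 16 aminoacyl-tRNA synthetase genes, 12.5% were lower (NARS1 and GARS1) and 6.25% higher (AIMP2, a scaffold of the synthetase complex, whose direction turned in the deposited values). For both lists, the shares among the 4911 genes were 19.8% lower and 9.26% higher.

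Messages translated on mitochondrial ribosomes were also lower. Of the 13 proteins encoded in mitochondrial DNA, 8 were at least 2-fold lower in KO (61.5%) and 0 higher, with a median log2 ratio of -1.16 and an offset of -0.89 (-1.31 to -0.70). Among the 4911 genes 19.8% were lower and 9.26% higher. All 13 lay in the highest of the 5 bins by level, where 35.7% of genes were lower and the median log2 ratio was -0.51. Of that bin, 57.2% were genes with a symbol that are not known noncoding RNAs. In rank the 13 moved little, by a median of -1.61 points, against -33.7 for the large and -24.6 for the small ribosomal subunit genes. Genes at the top of both files can hardly move in rank, so these medians do not compare the size of the change. MT-CYB, 9.85-fold lower in KO, shifted by only -3.25 points. The median scaled FPKM of the 13 mitochondrially encoded genes was 44.3 in KO, 58.2 in KO_FL, 61.3 in KO_dN and 116 in WT. The members were far apart. MT-CYB, of respiratory complex III, had 58.9 in KO, 93.3 in KO_FL, 66.5 in KO_dN and 589 in WT. MT-CO2, of complex IV, had 45.0 in KO and 255 in WT, whereas MT-CO1 of the same complex had 114 in KO and 116 in WT. MT-ND6 had 127 in KO and 601 in WT, and mt-atp8 had 111 in KO and 317 in WT.

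Nuclear genes of the same organelle were nearer to the bulk of genes. Of 39 respiratory chain and ATP synthase genes encoded in the nucleus, 11 were lower (28.2%) and 3 higher (7.69%), with a median of -0.14, which lies 0.14 above the all-gene median and changed sides of it under some settings (-0.72 to 0.20). The shares among the 4911 genes were 19.8% lower and 9.26% higher. ATP5F1A, the alpha subunit of ATP synthase, had 9.02 in KO and 58.5 in WT, and NDUFA6, of complex I, had 5.21 in KO and 0.214 in WT. NDUFA6 was near 0 in WT, so its call was fixed by the filter. Of 65 mitochondrial ribosomal protein genes 21 were tested, with 7 lower (33.3%) and 1 higher (4.76%), MRPL49, at 3.73 in KO and 0.613 in WT. mrpl39 had the lowest ratio, at 0.475 in KO and 5.17 in WT.

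The 12 maternal activators of the zygotic genome, such as nanog, pou5f3 and the NF-Y subunits, had the highest median among the lists with 3 or more genes, 0.53, with an offset of 0.80 (0.42 to 0.99). Of them 3 were called higher (25%) and 2 lower (16.7%), against 9.26% higher and 19.8% lower among the 4911 genes. With 12 genes, a few calls set the difference from those shares. nanog, a homeobox pluripotency factor, had 95.4 scaled FPKM in KO, 81.6 in KO_FL, 91.4 in KO_dN and 34.7 in WT, but 69.7 FPKM in KO and 118 FPKM in WT as deposited. pou5f3, the partner of nanog in opening the genome, had 39.8 in KO and 31.6 in WT. The other 2 higher genes were NFYC and 1 of 2 copies of NFYA, a subunit of a CCAAT-binding factor. The second NFYA copy went the other way, at 2.45 in KO and 22.3 in WT, as did SALL4, a zinc finger factor, at 10.2 in KO and 42.6 in WT.

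Of 34 tested genes for maternal oocyte and RNA-binding factors, 7 were higher (20.6%) and 6 lower (17.6%). The shares among the 4911 genes were 9.26% higher and 19.8% lower. The median of the 34 was 0.13. The most abundant was YBX1, a protein that packages maternal messages, with 242 scaled FPKM in KO, 243 in KO_FL, 176 in KO_dN and 60.0 in WT, and with 177 FPKM in KO and 204 FPKM in WT as deposited. cth1, a zinc finger protein that binds AU-rich messages, had 24.6 in KO and 6.08 in WT. CCNA2, cyclin A, had 82.0 in KO and 32.6 in WT. Both cth1 and CCNA2 were below WT in the deposited values, whereas ZAR1 above was higher in KO on both scales. Of 13 germ plasm genes tested, PIWIL1 was higher and ASZ1 lower, and DDX4 (vasa), the germ cell helicase, had 8.76 in KO and 10.4 in WT.

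Early zygotic transcription factors had a median below that of all genes. Of 27 early zygotic transcription factors 10 passed the filter, with 4 lower and 0 higher, against 19.8% lower and 9.26% higher among the 4911 genes. With 10 genes, a few calls set the difference from those shares. The median was -0.90 and the offset -0.62 (-0.90 to -0.29). The 4 lower genes were blf, tbx16, vgll4l and noto, 2 of which belong to the forming mesoderm. blf, a zinc finger factor of gastrulation movements, had 4.33 scaled FPKM in KO, 8.50 in KO_FL, 3.50 in KO_dN and 24.1 in WT. Levels were low, and over all 27 genes the median deposited value was 0.215 FPKM in KO and 2.1 FPKM in WT. These 2 medians are unscaled, and the scaling factors alone differ 4.65-fold between the files. Of 25 zygotic signalling genes 11 were tested, with 4 lower (36.4%) and 0 higher. Their median of -0.35 was close to that of all genes, and its offset of -0.07 changed sides under some settings (-0.11 to 0.19). The 4 were FGF8, WNT8A, CYP26A1 and chrd. FGF8, a fibroblast growth factor, had 0.272 in KO and 3.34 in WT, and CYP26A1, which breaks down retinoic acid, had 4.08 in KO, 9.20 in KO_FL, 3.97 in KO_dN and 13.0 in WT. FGF8 was near 0 in KO, so its call was fixed by the filter. The labels give all groups the same age, and whether the KO embryos were at the same developmental stage was not tested.

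Markers of the outer layers were compared because a blastula holds an enveloping layer and a yolk syncytial layer beside its deep cells. Of 16 enveloping layer markers 11 were tested, with 4 lower (36.4%), 1 higher (9.09%) and a median of -0.80 (offset -0.53, -0.86 to -0.25). Among the 4911 genes 19.8% were lower and 9.26% higher, and in a list this short a few calls set the difference. Of the 16, 3 were listed at 0 in KO and 1 in WT, and the tested members summed to 55.5 scaled FPKM in KO, 102 in KO_FL, 53.1 in KO_dN and 104 in WT. grhl3, a transcription factor of this layer, had 11.4 in KO and 43.7 in WT, and krt8, a keratin, had 0.806 in KO, 7.19 in KO_FL, 1.06 in KO_dN and 5.63 in WT. epcam, an epithelial adhesion protein, had 25.4 in KO and 21.7 in WT, and krt92, the 1 higher marker, had 3.53 in KO and 0.905 in WT with the direction turned as deposited. Of 10 yolk syncytial layer markers 5 were tested, with 2 lower (40%, against the same 19.8%), mxtx1 (0.200 in KO and 5.22 in WT) and mxtx2. mxtx1 was so near 0 in KO that it passed the filter only through WT, which fixed its call. The 5 markers had a median of -0.85 and an offset of -0.58 (-0.64 to -0.28). Their summed level was 118 in KO and 133 in WT, most of it from ctsla, a cathepsin with 109 in KO and 110 in WT, and the other 4 summed to 9.41 in KO and 22.9 in WT. In whole embryos, fewer cells of a type and less RNA per cell cannot be told apart. Footprints on the 7 vitellogenins of the yolk were almost absent, with a highest value of 0.119 FPKM in KO and of 0.336 FPKM in WT, not necessarily for the same gene.

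Of 96 splicing factor genes tested, 16 were higher (16.7%) and 14 lower (14.6%), against 9.26% and 19.8% among the 4911 genes. The median log2 ratio of the 96 was -0.07. Abundant members with close values were HNRNPAB at 175 scaled FPKM in KO and 161 in WT and hnrnpa0b at 74.4 in KO and 70.5 in WT. QKI, above, had the highest ratio and SNRPD2, a core protein of the small nuclear ribonucleoproteins, the lowest, at 0.255 in KO and 3.38 in WT. SNRPD2 was near 0 in KO, so its call was fixed by the filter. hnrnpa0l had 132 scaled FPKM in KO and 53.0 in WT, against 96.6 FPKM in KO and 180 FPKM in WT as deposited. Nuclear pore and transport genes had a median of 0.09, with 3 of 40 higher and 3 lower (7.50% each). The 3 lower ones were IPO5, RAN and ranbp1, of the import cycle, and RAN had 13.7 in KO and 41.3 in WT.

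**Figure D5:**
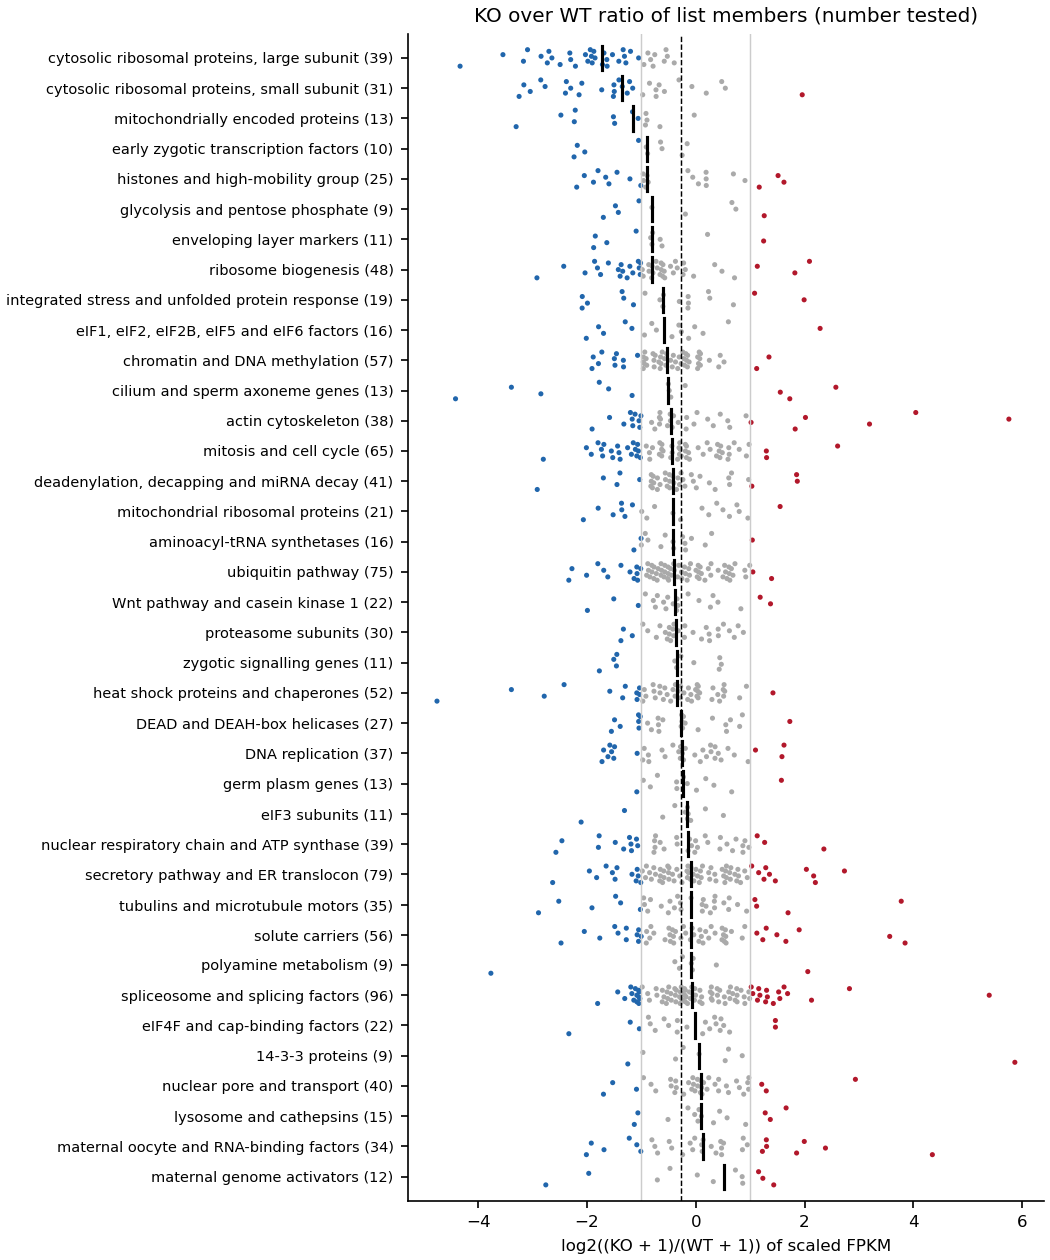
Log2 ratio of KO over WT on scaled FPKM (horizontal axis) of the members of each gene list with at least 9 genes tested (rows, with the number tested), 1 point per gene, red where at least 2-fold higher in KO and blue where at least 2-fold lower. Black ticks mark the median of each list, the dashed line the median of all genes, -0.28, and grey lines 2-fold. Ribosomal proteins of both subunits and the mitochondrially encoded proteins have the lowest medians, at -1.71, -1.35 and -1.16, and maternal genome activators the highest, at 0.53.

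Among chromosome proteins, 25 histone and high-mobility group genes were tested, and 9 were lower (36.0%), of which 6 were high-mobility group genes, and 3 were higher (12%), with a median of -0.89 and an offset of -0.62 (-0.75 to -0.34). Among the 4911 genes 9.26% were higher and 19.8% lower, but the share lower was 35.7% in the highest of the 5 bins by level, which starts at 8.38. The list's median levels were 25.6 scaled FPKM in KO and 43.4 in WT, and its share lower was close to that of the highest bin. Only 57.2% of that bin were genes with a symbol that are not known noncoding RNAs, so it is not a share of abundant protein-coding genes alone. The list's median rank difference was -0.80 points, a scale on which abundant genes can move little. hmga1a had 166 scaled FPKM in KO, 246 in KO_FL, 121 in KO_dN and 580 in WT, and HMGB2 had 113 in KO, 138 in KO_FL, 86.8 in KO_dN and 470 in WT. hmgn1a, which loosens nucleosome packing, had 89.3 in KO and 331 in WT, and h1l1, a linker histone whose symbol fell outside the list, had 68.2 in KO and 442 in WT. These 4 genes were abundant in every group and lowest in KO or KO_dN. Of 57 chromatin and DNA methylation genes, 10 were lower (17.5%) and 2 higher (3.51%). cbx2, a Polycomb protein, had 9.08 in KO and 36.8 in WT, and HDAC1, a histone deacetylase, had 41.9 in KO and 28.9 in WT.

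Of 65 mitosis and cell cycle genes, 20 were lower (30.8%) and 3 higher (4.62%), against 19.8% lower and 9.26% higher among the 4911 genes. Their median was -0.43, with an offset of only -0.16 (-0.18 to -0.008). The list's median levels were 3.4 scaled FPKM in KO and 5.03 in WT. In the 4th of the 5 bins by level, which runs from 3.85 to 8.38, 26.0% of genes were lower. NCAPG, of condensin, had 3.68 scaled FPKM in KO and 31.6 in WT, and plk1, the polo kinase, had 4.46 in KO and 21.0 in WT. The 3 higher genes were CCNB2, CCNA2 and ANAPC4. ANAPC4, of the anaphase-promoting complex, had 12.3 in KO, 3.44 in KO_FL, 10.1 in KO_dN and 1.18 in WT, and GMNN, which blocks relicensing of replication origins, had 132 in KO and 155 in WT. Of 37 DNA replication genes 8 were lower (21.6%) and 3 higher (8.11%), shares close to those over the 4911 genes, with ORC6, of the origin recognition complex, at 3.81 in KO and 14.9 in WT, and 2 copies of RRM2, of the enzyme that makes deoxynucleotides, among the higher ones.

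Of 38 actin genes tested 6 were higher (15.8%) and 10 lower (26.3%), with actb2, a cytoplasmic actin, at 68.0 scaled FPKM in KO and 18.4 in WT, but 49.6 FPKM in KO and 62.6 FPKM in WT as deposited. CFL1, the filament-severing protein cofilin, went the other way, with 61.3 in KO, 89.7 in KO_FL, 53.2 in KO_dN and 232 in WT. Of 35 tubulin and microtubule motor genes 4 were higher (11.4%) and 6 lower (17.1%), near the shares of genes at large, with MARK2 and STMN1, described above, at the ends. Cilium and sperm axoneme genes were mostly untested, since 13 of 107 passed the filter, with 3 higher (23.1%) and 6 lower (46.2%). Among the 4911 genes 9.26% were higher and 19.8% lower. The list's offset of -0.23 ran from -2.65 to 0.025 over the settings and so changed sides. IFT56, a ciliary transport subunit, had 16.5 in KO and 1.93 in WT, and DNAJB13, of the radial spoke, had 0.417 in KO and 13.8 in WT.

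Of 52 heat shock and chaperone genes 11 were lower (21.2%) and 1 higher (1.92%), with a median of -0.35. HSPB1 and HSPA8 held the lowest ratios beside DNAJB13, and HSP90AB1, the constitutive Hsp90, had 77.2 scaled FPKM in KO, 89.0 in KO_FL, 63.4 in KO_dN and 233 in WT. Of 19 genes of the integrated stress and unfolded protein responses, 6 were lower (31.6%) and 2 higher (10.5%), with a median of -0.59 and an offset of -0.32 (-0.35 to -0.10). Among the 4911 genes 19.8% were lower and 9.26% higher. The stress list held CAPRIN1, an RNA-binding protein, at 13.5 in KO and 60.8 in WT and ern1, the sensor IRE1, at 5.89 in KO and 0.730 in WT. G3BP1, a stress granule protein that binds CAPRIN1, had 42.5 in KO and 64.5 in WT. Of 30 proteasome genes 10.0% were lower (PSMB3, PSMC1 and PSMA4) and 0 higher, and of 75 ubiquitin pathway genes 13 were lower (17.3%) and 2 higher (2.67%). UCHL1, a deubiquitinase, had 4.68 in KO and 27.6 in WT.

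Of 41 genes for deadenylation, decapping and miRNA decay, the machinery that clears maternal messages, 5 were lower (12.2%) and 3 higher (7.32%). Both shares were below those of the 4911 genes (19.8% and 9.26%), and the median of the 41 was -0.42. PNRC2, above, was the lowest of them and the most abundant. TNRC6C, a scaffold of the silencing complex, had 3.58 scaled FPKM in KO, 4.37 in KO_FL, 6.40 in KO_dN and 0.255 in WT. It was near 0 in WT, so its call was fixed by the filter. LSM5, of the ring that marks messages for decapping, had 7.51 in KO and 22.2 in WT.

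Of 79 secretory pathway genes 10 were higher (12.7%) and 12 lower (15.2%), shares near those of the 4911 genes (9.26% and 19.8%). SRP68 of the signal recognition particle had 6.41 scaled FPKM in KO and 44.8 in WT, and SEC62, of the translocon, had 24.0 in KO and 71.2 in WT. TMED8, of the p24 cargo family, had 9.61 in KO, 2.01 in KO_FL, 13.9 in KO_dN and 0.595 in WT. Lysosomal genes had a median of 0.10 over 15 tested, with 3 higher and 2 lower, and CTSB, a cathepsin protease, had 97.6 in KO and 51.2 in WT while CTSD had 7.82 in KO and 18.3 in WT.

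In the Wnt pathway, where DDX3 proteins are also known to act by binding casein kinase 1, 3 of 22 genes were lower (13.6%) and 2 higher (9.09%), with a median of -0.38. The shares among the 4911 genes were 19.8% lower and 9.26% higher. The lower Wnt genes were FZD7, WNT8A and APC, and the higher ones CSNK1A1 and ctnnb2. FZD7, a maternal Wnt receptor, had 6.17 scaled FPKM in KO, 9.36 in KO_FL, 5.6 in KO_dN and 27.5 in WT. Both beta-catenin genes stood higher after scaling and lower as deposited: CTNNB1 had 15 scaled FPKM in KO and 8.01 in WT (11 FPKM in KO and 27.2 FPKM in WT as deposited), and ctnnb2 had 19.6 in KO and 6.94 in WT (14.3 FPKM in KO and 23.6 FPKM in WT as deposited).

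Known noncoding RNAs held 54.5% of the deposited sum in KO and 31.9% in WT, and genes without a symbol 39.2% in KO and 61.0% in WT. Many noncoding RNA genes have near-identical copies, so single values are uncertain. 5.8S ribosomal RNA had 165680 FPKM in KO and 83312 FPKM in WT, and its share of the sum was 6.31% in KO_FL and 27.1% in KO_dN. Of 45 small nucleolar RNAs tested, which guide the modification of ribosomal RNA, 12 were higher and 22 lower, with a median log2 ratio of -0.76. snord29, the most abundant of them in KO_FL, had 18711 scaled FPKM in KO, 57811 in KO_FL, 7702 in KO_dN and 70365 in WT. Of 21 spliceosomal U RNAs, 14 were lower and 1 higher, with a median of -1.91, and both Vault RNAs were lower. However, 7 of the 21 U RNAs and 2 of the 45 small nucleolar RNAs were listed at 0 in KO. A gene at 0 in KO passes the filter only when over 2-fold lower, so those calls were fixed by the filter. Among all 1606 genes that are noncoding RNAs or have no symbol, 18.5% were higher and 28.2% lower, shares that also hold calls fixed by the filter. Of the 19 microRNA genes tested, 11 were listed at 0 in KO and 7 in WT, and such a gene passes the filter only with a difference of over 2-fold, so their calls were fixed by the filter. Of 26 tested 5S ribosomal RNA copies 9 were higher and 14 lower, with 14 listed at 0 in KO and 6 in WT, to which the same applies. By comparison, 16 of the 4911 other genes with a symbol were listed at 0 in KO and 9 in WT.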

How the data were processed

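The deposited values were FPKM per gene, in 1 column per group. The authors combined the 2 replicates of each group before deposit, per the series' design text. Reads were handled with Cufflinks 2.2.1, TopHat2 2.1.1, Bowtie, cutadapt 1.13 and Trimmomatic 0.36 on build Zv9, per the submitters' processing notes, which were read without their order or settings. Read counts, and whether ribosomal RNA reads were removed after sequencing, are not stated in the labels.

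Identifiers on more than 1 line of the WT file, or absent from it, were left out, which left 33633. A table of gene names gave 21863 of them a symbol, written as in that table, and 16709 symbols matched a RefSeq gene (GRCz12tu), which was used only for gene type. Values were scaled by median of ratios over 3177 genes, and genes with a scaled mean of KO and WT of at least 1 were kept. A gene was called at 2-fold on log2 ratios with a pseudocount of 1. Python 3.11.15, pandas 2.3.3 and NumPy 2.4.6 were used, and the code was tested on simulated data. There all groups shared the same profile with little noise, and a set of genes was shifted by a known amount. The real files differ far more, so that test checks the code and not the calls reported here.

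The rule for named genes took ddx3xb and ddx3xa, the 15 highest and 15 lowest ratios at a scaled mean of at least 5, the 10 highest levels of each group, the 5 largest rank differences each way, and in each list the highest and lowest ratio and the 3 highest levels. After the values were seen, the 25 highest and 25 lowest ratios and the 15 highest levels without noncoding RNAs were added, as were members of lists with few calls. The comparison and the 47 gene lists were chosen with earlier results of these data known, and members that a symbol pattern had taken by mistake were removed by name. Single values of a few list members are not reported here.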

Additional observations from a re-analysis of the deposited data

How the results depend on the processing

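The counts of genes at least 2-fold higher and lower in KO, 752 and 1426, moved by over 1.5 times under these settings: 207 higher and 5373 lower as deposited, 325 and 550 with a pseudocount of 5, 358 and 679 with a scaled mean of at least 5 (fewer genes tested), and 394 and 862 over RefSeq protein-coding symbols (chosen after seeing the data, fewer genes tested). The higher count alone moved to 1177 with ratios centred on their median and to 1132 with each file set to the same sum, with 1173 and 1289 lower. Other settings gave 715 to 1038 higher and 1046 to 1994 lower. Of 241 named genes, 20 called higher changed sign as deposited, where the log2 ratio was -0.60 for snord31.1, -1.16 for snord31.2, -0.73 for SNORD14, -0.63 for eif4e1c, -0.82 for AIMP2, -0.092 for DHX15, -0.75 for nanog, -0.20 for YBX1, -0.020 for PIWIL1, -0.19 for cth1, -0.88 for CCNA2, -0.33 for actb2, -0.52 for dnajc5ga, -0.62 for uba1, -0.89 for hnrnpa0l, -0.55 for ARID4A, -0.88 for SLC16A3, -0.49 for ALDOA, -0.68 for ctnnb2 and -0.19 for krt92. The scaling factors alone account for these. With quantile normalization SNORD30 turned to 0.14 and snord75.2 to 0.22, and the cause was not tested. The offset from the all-gene median kept its sign in every setting for 23 of 40 lists and changed it for the other 17, whose offsets, glycolysis apart, lay between -0.26 and 0.26. The offset of the glycolysis list, -0.53, turned to 0.023 with no filter and to 0.11 with a filter on the deposited mean, both of which change the genes tested. No paired analysis was possible because each group had 1 deposited value per gene, and for the same reason no replicate could be left out. A comparison by protein length and chromosome was not run. Counting error, unequal depth and replicate spread are unknown for every gene.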

Other observations

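Of 56 solute carriers tested, 8 were at least 2-fold higher in KO (14.3%) and 11 lower (19.6%), near the 11.5% and 21.9% of all genes tested, with a median log2 ratio of -0.08. SLC16A3, a lactate and proton carrier and the most abundant of those called higher, had 68.3 scaled FPKM in KO, 72.5 in KO_FL, 48.1 in KO_dN and 27.2 in WT, against 49.9 FPKM in KO and 92.5 FPKM in WT as deposited. slc12a7a, a potassium and chloride carrier, had 7.36 in KO, 11.6 in KO_FL, 7.60 in KO_dN and 45.5 in WT. Of 9 glycolysis and pentose phosphate genes, 4 were lower and 1 higher. ENO3, an enolase, was among the lower ones, with 2.33 in KO and 9.81 in WT. ALDOA, an aldolase, was the higher one, with 6.05 in KO, 7.38 in KO_FL, 8.25 in KO_dN and 1.94 in WT, though it was lower in KO as deposited (4.42 FPKM in KO and 6.61 FPKM in WT).

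Among 14-3-3 genes, YWHAG was the only one of 9 called higher and YWHAB the only one called lower (11.1% each). YWHAB had 4.13 scaled FPKM in KO and 11.2 in WT. YWHAE, of the same family, had 37.9 in KO and 20.5 in WT. Of 9 polyamine genes SAT1 alone was called lower and ATP13A2 alone higher (11.1% each). The shares of both lists compare with 9.26% higher and 19.8% lower among the 4911 genes. SAT1 was listed at 0 in KO, so its call was fixed by the filter. ATP13A2, a polyamine transporter of the lysosome, had 6.35 in KO and 0.762 in WT. The antizyme OAZ1, which lowers polyamine synthesis, had 76.7 in KO, 148 in KO_FL, 49.9 in KO_dN and 94.6 in WT. Of 12 antiviral and innate immune genes isg15 alone passed the filter, with 5.43 in KO and 6.88 in WT.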
